A study of Mus musculus with 2 samples.

Results

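Broad domains of acetylated histone H3 were followed here: 1019 stretches of 5 to 37 kb on the 19 mouse autosomes, out of 37126 runs of H3KAc-rich bins in all. H3KAc stands for histone H3 acetylated on lysines. Reads were counted once per distinct mapped position (chromosome, 5′ end and strand), moved 100 bp along their strand, in 1-kb bins of the mm9 build. A bin entered a run with 30 or more H3KAc positions, and such bins were joined when they touched or had a single other bin in between. Runs were kept as domains when they spanned 5 kb or more and their H3KAc level was at least 1.5 times their IgG level, with 1 position added to the IgG count. Levels are in RPM (reads per 1000000), where each library's count is its number of distinct positions, and they are given per kb of span. Both the H3KAc and the IgG counts chose the domains, so their own levels and ratios are descriptions and were not tested.

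Acetylation of lysines on the tail of histone H3 weakens contacts of the histone with DNA and is read by proteins with bromodomains. It marks the promoters and enhancers of active genes, where it usually forms peaks a few nucleosomes wide. Longer acetylated stretches are known from active gene clusters and from groups of neighbouring enhancers in a cell type. T helper 2 (Th2) cells are CD4+ T cells that develop under interleukin-4 and secrete the cytokines of type 2 immunity.

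The series held 2 ChIP-seq libraries from Th2 cells: 1 precipitated with an antibody to acetylated H3 and 1 with non-specific rabbit IgG. For both, CD4+CD62L+ T cells came from spleens of C57BL/6 mice. Activation through CD3 and CD28 lasted 5 days and took place with 10 ng/ml IL-4 and 2 µg/ml antibody to IFN-gamma, and a rest of 3 days followed. Chromatin was fixed with 0.4% formaldehyde for 10 min, 7 µg of antibody was used, and fragments of about 200 bp were selected on a gel after PCR. Each group had 1 library, so no value has a replicate error and no p-value is given. All intervals are exact 95% intervals for counting error only. The cells were of 1 in vitro polarisation, and the label Th2 was not checked against marker genes, because no mm9 gene annotation was used here. Domains are therefore given by mm9 coordinates, without genes or sequences.

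The H3KAc library held 21845451 reads at 19711169 distinct positions, or 1.11 reads per position. The IgG library held 7626703 reads at 1897666 positions, or 4.02 reads per position. A single position was worth 0.0507 RPM in the H3KAc library and 0.527 RPM in the IgG library. Autosomal bins without a position made up 0.817% of covered bins for H3KAc and 59.6% for IgG. The IgG counts therefore set the precision of nearly every ratio. The bin minimum of 30 positions equals 1.52 RPM, and 66288 of 2141121 covered autosomal bins reached it (3.10%).

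Of the 37126 runs, 2547 spanned 5 kb or more, and 1019 of these met the ratio (40%). The share meeting the ratio was 36.3% among the 34579 runs of 1 to 4 kb and 36.6% among all runs. The domains covered 7789 kb, which is 0.364% of the covered autosomal sequence, and held 2.30% of autosomal H3KAc positions and 0.955% of autosomal IgG positions. Summed over all domains, 446112 H3KAc positions gave 2.91 RPM per kb (2.90 to 2.91), against 1.20 RPM per kb from 17769 IgG positions. The pooled ratio of H3KAc to IgG was 2.42 (2.38 to 2.45). Outside the domains the autosomes averaged 0.450 RPM per kb of H3KAc and 0.455 RPM per kb of IgG, a ratio of 0.988. IgG was thus also higher inside the domains than across the rest of the autosomes.

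Among the 1019 domains, the H3KAc level ranged from 1.18 to 6.43 RPM per kb with a median of 2.82. The IgG level ranged from 0 to 2.94 RPM per kb with a median of 1.14. The middle 50% of domains lay between 2.29 and 3.37 RPM per kb of H3KAc, so their levels fell within a narrow band. The ratio with 1 IgG position added ran from 1.5 to 24.3 with a median of 2.29. Domains held 116 to 2522 H3KAc positions (median 361) but 0 to 129 IgG positions (median 14), and 299 domains held fewer than 10 IgG positions. Counting error left room for a ratio of 1 or less in some of them, since the lower bound of the interval was above 1 in 971 domains. That bound reached 1.5 in 477 domains, which is 18.7% of all runs of 5 kb or more, against 8.02% of all runs. The bound depends on the number of positions, which is smaller in narrow runs, so these shares do not compare the ratios of wide and narrow runs. It exceeded 2 in 208 domains (8.17% of the runs of 5 kb or more).

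**Figure D1:**
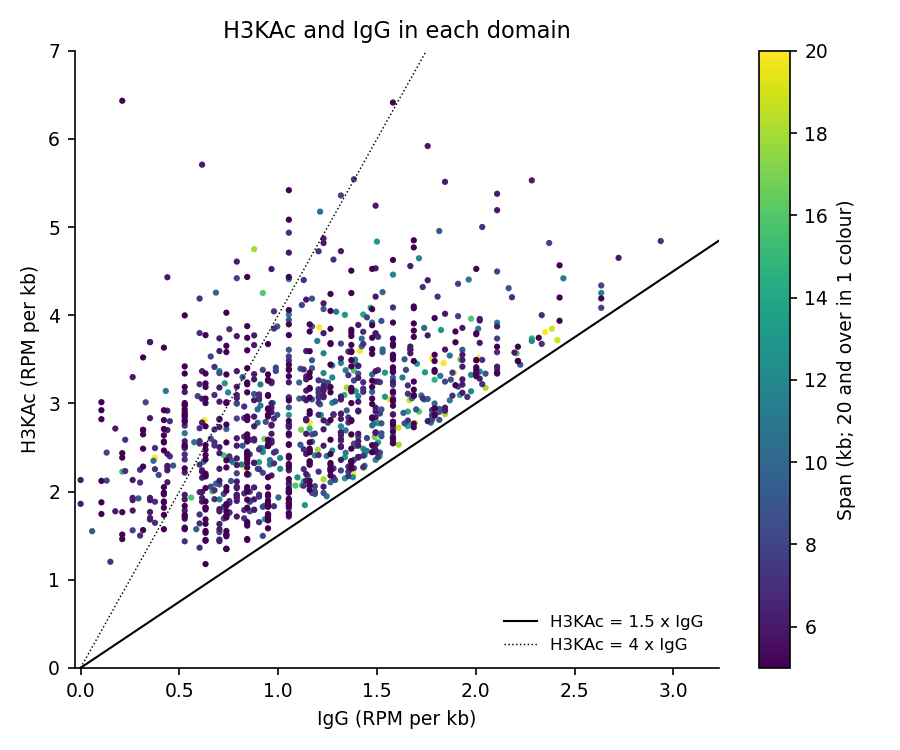
Each point is 1 of the 1019 domains, with its IgG level on the horizontal axis and its H3KAc level on the vertical axis, both in RPM per kb, coloured by span in kb. All points lie above the solid line at a ratio of 1.5, which the choice of domains fixes, and most lie to the right of the dotted line at a ratio of 4.

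Domains with more H3KAc also tended to hold more IgG. Across the 1019 domains, which share both libraries, the correlation between the levels of H3KAc and IgG was r = 0.515 (Spearman rho 0.537). Span was nearly unrelated to the H3KAc level per kb (r = 0.0536, rho 0.0723). Its correlation with the ratio was also weak (r = -0.112, rho -0.0957). These values describe the domains only, since the choice by ratio ties both levels together.

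Most domains were close to the minimum span. There were 341 domains of 5 kb, 216 of 6 kb and 266 of 7 to 9 kb. Domains of 10 kb or more numbered 196, of which 58 spanned 15 kb or more and 19 spanned 20 kb or more. The pooled H3KAc level was almost flat over these classes, at 2.81 RPM per kb in domains of 5 kb, 2.93 at 6 kb, 2.87 at 7 to 9 kb, 3.00 at 10 to 14 kb, 2.91 at 15 to 19 kb and 3.00 at 20 kb or more. The pooled IgG level was higher in wider domains, at 1.07, 1.08, 1.16, 1.32, 1.44 and 1.45 RPM per kb in the same order of spans. The pooled ratio was accordingly 2.62 (2.53 to 2.71) at 5 kb and 2.07 (1.96 to 2.18) at 20 kb or more. The median domain of 5 kb rested on 10 IgG positions, and the median domain of 20 kb or more on 67. The added IgG position weighs more in narrow domains, so the choice contributes to these trends of IgG and ratio with span. How much it contributes was not tested. Of the runs of each span, those that met the ratio made up 41.1% at 5 kb and 32.2% at 20 kb or more, with 38.2% to 41.5% in between.

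**Figure D2:**
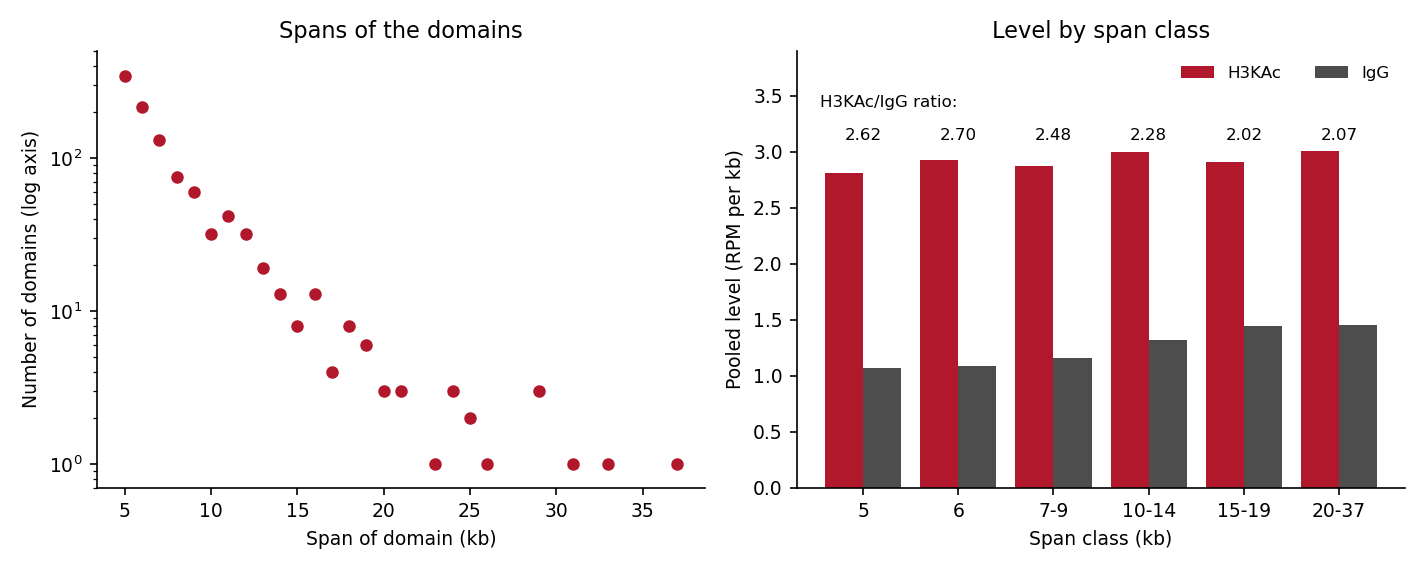
Left, the number of domains (log axis) of each span in kb, with 341 at 5 kb and 1 at 37 kb. Right, the pooled H3KAc and IgG levels in RPM per kb in 6 span classes, with the pooled ratio printed above each pair of bars. The H3KAc bars stay between 2.81 and 3.00 RPM per kb while the IgG bars reach 1.45 RPM per kb in the widest class.

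The widest domain was chr11:117165001-117202000, of 37 kb. It held 2522 H3KAc positions, or 128 RPM (123 to 133), against 129 IgG positions. Its level was 3.46 RPM per kb of H3KAc and 1.84 RPM per kb of IgG, a ratio of 1.88 (1.58 to 2.26). Its bins held 16 to 150 H3KAc positions with a median of 55, and the highest bin was the 29th of the 37. The level exceeded 50% of that bin in 5 separate stretches, so the domain was a row of summits and not a plateau. A second wide domain on the same chromosome, chr11:117847001-117878000, spanned 31 kb with 1539 H3KAc and 87 IgG positions and a ratio of 1.70 (1.37 to 2.14). At least 50% of its span was called again in 10 of 15 other processing settings, and none of it with a minimum of 25 positions or with plus-strand reads alone.

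Chromosome 10 held a pair of wide domains. The 33-kb domain chr10:79599001-79632000 held 2286 H3KAc and 126 IgG positions, with a ratio of 1.75 (1.46 to 2.11). It had 7 stretches above 50% of its highest bin, the most of any domain. It was not called when bins were joined over up to 2 others, because the longer run fell below the ratio. The 29-kb domain chr10:79475001-79504000 held 1913 H3KAc and 104 IgG positions and had a ratio of 1.77 (1.45 to 2.18). In the 5 kb on either side, both H3KAc and IgG were at 1.16 RPM per kb.

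The ratios of the 10 widest domains ran from 1.59 to 3.20. The 24-kb domain chr9:107197001-107221000 had 3.86 RPM per kb of H3KAc and 1.21 RPM per kb of IgG, and its ratio of 3.20 (2.45 to 4.26) was the highest of the 10. The 25-kb domain chr19:4282001-4307000 followed with 1771 H3KAc and 67 IgG positions and a ratio of 2.54 (1.99 to 3.30). At the low end, the 29-kb domain chr15:77624001-77653000 had 1255 H3KAc and 76 IgG positions and a ratio of 1.59 (1.26 to 2.03). It was not called with a minimum of 25 positions or with joining over up to 2 bins. The 26-kb domain chr15:76016001-76042000 had nearly the same ratio, 1.62 (1.34 to 1.97), at higher levels of 3.81 RPM per kb of H3KAc and 2.35 RPM per kb of IgG. IgG in the 5 kb on either side of that domain was as high, at 2.27 RPM per kb, while H3KAc there was 1.20 RPM per kb. It was called in 8 of the 15 other settings, and not with all reads counted, with 500-bp bins or with plus-strand reads alone.

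Some wide domains of other chromosomes stood on little IgG. The widest of chromosome 13, chr13:53065001-53086000, spanned 21 kb with 1163 H3KAc and 25 IgG positions, at 2.81 RPM per kb of H3KAc and 0.627 RPM per kb of IgG. Its ratio was 4.48 (3.02 to 6.95), and 10 of its 21 bins held no IgG position. The widest of chromosome 3, chr3:101078001-101102000, spanned 24 kb with a ratio of 2.72 (1.97 to 3.86) and rose above 50% of its highest bin in 6 stretches. The 15-kb domain chr15:66621001-66636000 held 658 H3KAc and 6 IgG positions, with 11 of its 15 bins at 0 IgG, and its ratio was 10.6 (4.82 to 28.9). Chromosome 18 had the narrowest widest domain, chr18:75526001-75534000, of 8 kb, with 589 H3KAc and 32 IgG positions and a ratio of 1.77 (1.24 to 2.61). It was not called with plus-strand reads alone.

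**Figure D3:**
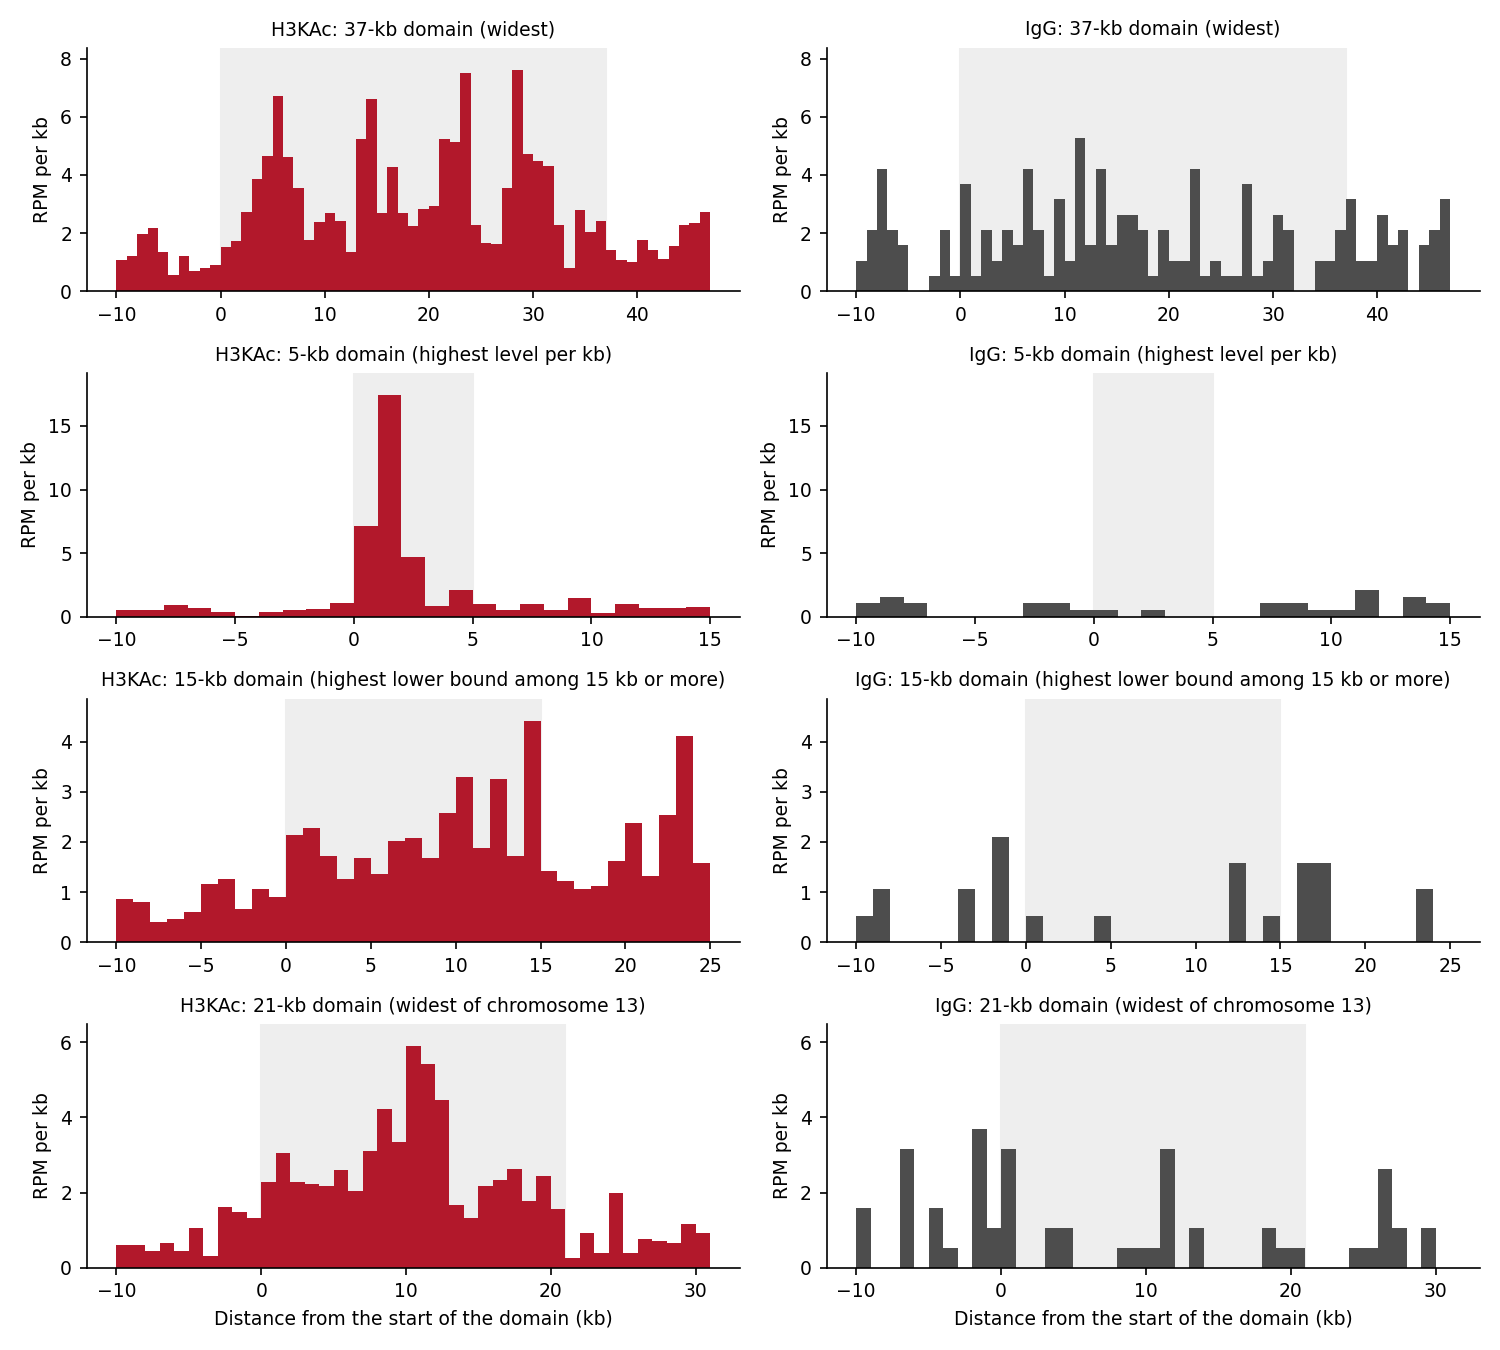
H3KAc (left) and IgG (right) levels in RPM per kb in 1-kb bins across 4 domains (shaded) and 10 kb on either side, against the distance in kb from the start of the domain. Rows show the 37-kb domain, the domain with the highest level per kb (5 kb), the 15-kb domain with 6 IgG positions and the 21-kb domain of chromosome 13. The 37-kb domain shows several H3KAc summits, and the 5-kb domain a single one.

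The domains with the highest H3KAc level were all narrow, with 5 to 8 kb in the first 10. Most of the 1019 domains were as narrow, with 341 of 5 kb, 216 of 6 kb, 131 of 7 kb and 75 of 8 kb. The highest, chr6:119429001-119434000, had 6.43 RPM per kb of H3KAc from 634 positions, against 0.211 RPM per kb of IgG from 2 positions. Its ratio was 30.5, with a wide interval of 8.41 to 253. Its 5 bins held 140, 343, 92, 17 and 42 positions, so the second bin carried most of the signal. It was not called with 500-bp bins or when only adjacent bins were joined. The domain chr1:88421001-88426000 reached 6.41 RPM per kb of H3KAc and 1.58 RPM per kb of IgG, with a ratio of 4.06 (2.44 to 7.29). In chr9:62188001-62194000, of 6 kb, 675 H3KAc and 7 IgG positions gave 5.71 RPM per kb of H3KAc, 0.615 RPM per kb of IgG and a ratio of 9.28 (4.48 to 23.2). The bin with the most positions in any domain, 352, lay in the 8-kb domain chr8:15024001-15032000, whose level was 5.54 RPM per kb of H3KAc and whose ratio was 4.01 (2.61 to 6.51). All 10 had a single stretch above 50% of the highest bin.

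Ranked by the lower bound of the ratio, 6 of the 10 leading domains had 1 or 2 IgG positions and 2 had none. Both domains without an IgG position lay on chromosome 6. In chr6:48625001-48631000, 252 H3KAc positions stood against 0 IgG positions, and the lower bound of the ratio was 6.53. In chr6:129131001-129137000, 220 H3KAc positions stood against 0, with a lower bound of 5.69. Its 6 bins held 30 to 47 H3KAc positions, an even course with no bin under the minimum. With minus-strand reads alone neither domain was called, and with 500-bp bins the first was not. The 9-kb domain chr2:11567001-11576000 had 275 H3KAc positions against 1 IgG position, with a ratio of 26.5 (4.71 to 1049). Its bins held 10 to 39 H3KAc positions with a median of 36, and 2 of the 9 were under the minimum. It was called in 11 of 15 other processing settings, and not with reads left unmoved or with 500-bp bins.

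Taking each domain's highest bin as its summit, 568 domains (55.7%) rose above 50% of the summit in 1 stretch, 325 (31.9%) in 2 and 126 (12.4%) in 3 or more. The level was above 50% of the summit over the whole span in 50 domains, and over 44.1% of the summed span. Among the 58 domains of 15 kb or more, 8 had 1 stretch and 38 had 3 or more. Median stretches by span were 1 at 5 kb, 6 kb and 7 to 9 kb, 2 at 10 to 14 kb, and 3 at 15 to 19 kb and at 20 kb or more. The share of the span above 50% of the summit was 55.8% at 5 kb, 47.7% at 6 kb, 45.9% at 7 to 9 kb, 34.5% at 10 to 14 kb, 32.9% at 15 to 19 kb and 32.4% at 20 kb or more. The wider domains were thus built of several summits with lower bins between them. More bins also give more chances for separate stretches. Over all spans, the runs of 5 kb or more below the ratio had a median of 2 stretches, against 1 in the domains. Several stretches were thus not particular to the domains.

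With the span cut into 3 equal parts, the summit lay in the first part in 395 domains, in the middle part in 290 and in the last part in 334. It was an end bin in 202 domains (19.8%). The summit bin held 33 to 352 positions with a median of 110, and it carried 5.95% to 61.7% of a domain's H3KAc positions with a median of 28.4%. Bins under the minimum were part of most domains, since 978 of the 7789 bins had fewer than 30 positions and 331 domains had no such bin.

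H3KAc fell steeply at the edges, as the minimum per bin requires. Averaged over both edges of all domains, the level was 2.57 RPM per kb in the outermost bin inside and 0.920 RPM per kb in the first bin outside. IgG was 1.21 RPM per kb in the same bin inside and 0.835 RPM per kb in the first bin outside. Further out, where the rule sets no limit, H3KAc was 1.22 RPM per kb in the sixth bin, 1.18 in the tenth, 1.11 at 20 kb and 1.04 at 30 kb. IgG was 1.01, 1.05, 1.02 and 0.978 RPM per kb at those distances. Both therefore remained above the autosomal means of 0.459 RPM per kb of H3KAc and 0.458 RPM per kb of IgG out to 30 kb. Bins of neighbouring runs were not left out of these averages. In the tenth bin 22.5% reached 30 positions and at 30 kb 16.8% did, against 3.10% of covered autosomal bins. H3KAc in the 5 kb on either side was lower than inside in 1009 domains. The rule favours this, since the first 2 bins outside each edge hold fewer than 30 positions. IgG in the 5 kb on either side was lower than inside in 646 domains (63.4%) and higher in 355.

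The course around the summit was read from the strand that did not place it. Positions of both strands had chosen the domains, so these levels are descriptions and not a reading on unused data. The highest 500 bp of each domain were found on plus-strand positions, and levels were then counted on minus-strand positions. Between 500 and 1000 bp from that point, the domains had 3.06 RPM per kb of H3KAc and 0.967 RPM per kb of IgG. H3KAc was 2.13 RPM per kb at 1 to 2 kb, 1.71 at 2 to 3 kb, 1.44 at 3 to 5 kb, 1.24 at 5 to 10 kb and 1.17 at 10 to 20 kb. IgG stayed between 0.937 and 1.02 RPM per kb over those distances. In the 12567 runs of 1 to 4 kb that met the ratio, H3KAc was already down to 0.825 RPM per kb at 1 to 2 kb, with 0.622 RPM per kb of IgG. The domains' slope of H3KAc thus extended over several kb on both sides of the summit, against about 1 kb in the narrower runs, a difference in width that the choice by span builds in.

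**Figure D4:**
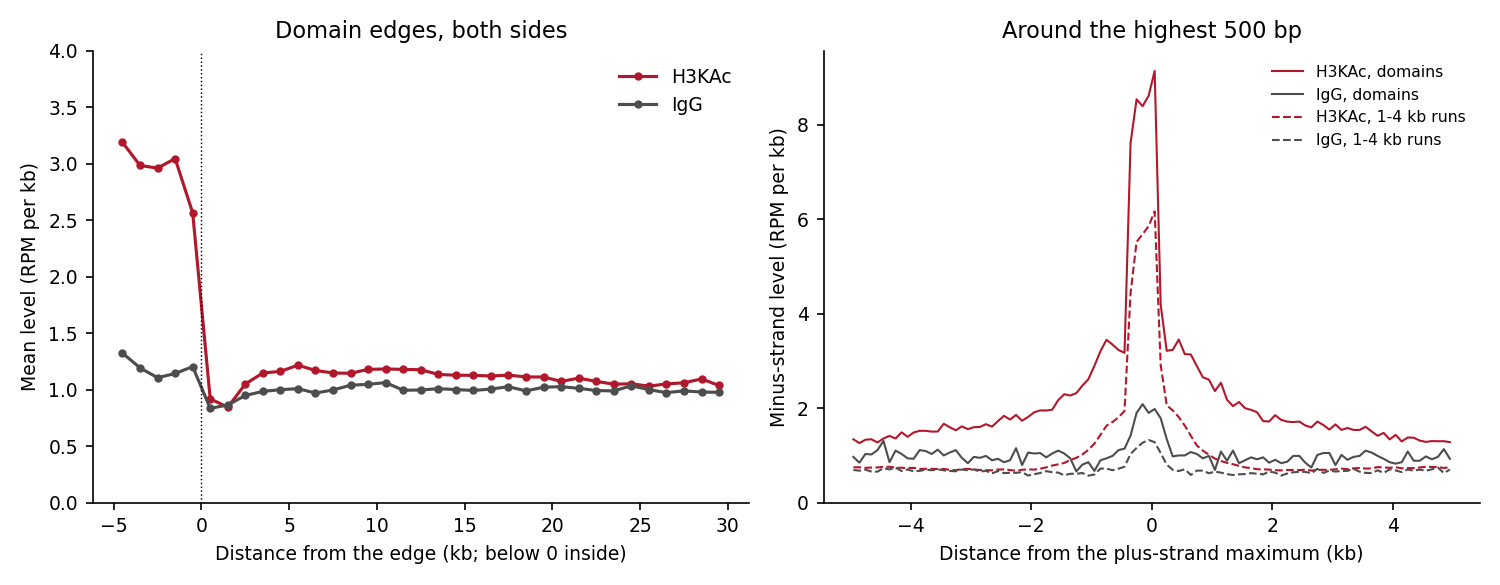
Left, mean H3KAc and IgG levels in RPM per kb by distance in kb from both edges of the 1019 domains, with distances below 0 inside. Right, minus-strand levels in RPM per kb around the highest 500 bp on the plus strand, in the domains (solid) and in the runs of 1 to 4 kb that met the ratio (dashed). The H3KAc step in the domains has the width of the 500-bp window that chose it but is not centred on it. It starts at -400 bp, where the level goes from 3.17 to 7.61 RPM per kb. It ends at 100 bp, where the level goes from 9.14 to 4.19 RPM per kb. Positions of both strands were moved 100 bp, while opposite-strand H3KAc starts in the domains were paired most often at 61 bp. The part of this move in the offset was not tested. H3KAc in the domains declines over several kb on the right and falls to 0.920 RPM per kb in the first bin outside the edge on the left.

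The choice was also repeated on 1 strand at a time, with the ratio then read on the other strand. Domains chosen on plus-strand positions numbered 1047, with a pooled ratio of 2.29 (2.25 to 2.34) on the minus strand and 2.55 (2.49 to 2.60) on the plus strand. Of these, 813 (77.7%) reached 1.5 on the minus strand, against 33.3% of all 3098 runs of 5 kb or more found on the plus strand. Domains chosen on the minus strand numbered 1142, and 831 (72.8%) reached 1.5 on the plus strand, against 32.0% of 3078 runs. Their pooled ratio was 2.16 (2.12 to 2.20) on the plus strand and 2.54 on the minus strand. The strands are not independent samples, because they come from the same libraries and fragments. In the domains, opposite-strand start positions were paired most often at 61 bp in the H3KAc library, 2.47 times as often as far apart, and at 145 bp in the IgG library, 4.41 times as often. Positions from both ends of 1 fragment cannot be told apart from independent ones, so the intervals may be too narrow.

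Repeated reads and strand shares in the domains were close to those of the whole libraries. Each H3KAc position in the domains held 1.14 reads on average and each IgG position 4.03 reads, with 1.05 to 1.29 reads per H3KAc position in single domains. With all reads counted, the pooled ratio of the same domains was 2.47, and 941 of the domains had an all-read ratio of 1.5 or more. Distinct positions of the same reads chose the domains, so this count largely follows the choice. The median all-read ratio was 2.54 in the 1017 domains with an IgG position. It was 0.907 in the runs of 5 kb or more below the ratio. The plus strand held 50.004% of H3KAc positions and 49.8% of IgG positions in the domains. In 963 domains, the plus strand held 45% to 55% of the H3KAc positions.

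Next to the domains stood the 1528 runs of 5 kb or more below the ratio. The domains' medians of 2.82 RPM per kb of H3KAc and 1.14 RPM per kb of IgG compare with 1.84 RPM per kb of H3KAc and 2.11 RPM per kb of IgG in these runs. Over the 11994 kb of these runs the pooled levels were 2.24 RPM per kb of H3KAc and 2.66 RPM per kb of IgG, a ratio of 0.844. The highest bin had a median of 110 positions in the domains and 52 in these runs. Several of the runs were wider than any domain, led by chr11:3022001-3100000, of 78 kb, with 13.3 RPM per kb of H3KAc, 23.0 RPM per kb of IgG and a ratio of 0.579. A second, chr1:90120001-90176000, of 56 kb, had 4.47 RPM per kb of H3KAc and 6.03 RPM per kb of IgG, a ratio of 0.742. An average of more than 2 reads per H3KAc position was found in 0 of the domains and in 6 of these runs. The rule splits these runs from the domains by the ratio of H3KAc to IgG, so the differences in both levels and in the highest bin follow the choice and are not findings.

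Pooled over their spans, the domains held more IgG, and slightly less H3KAc, than the 12567 runs of 1 to 4 kb that met the ratio. By the median over single regions, both levels were higher in the domains. The medians were 2.82 against 2.60 RPM per kb of H3KAc, and 1.14 against 0.527 RPM per kb of IgG. Pooled levels were 2.91 RPM per kb of H3KAc and 1.20 RPM per kb of IgG in the domains, against 3.15 RPM per kb of H3KAc and 0.890 RPM per kb of IgG in the narrower runs. The pooled ratio was 2.42 in the domains and 3.54 (3.50 to 3.58) in the narrower runs. The rule contributes to the pooled differences in both libraries. The added IgG position weighs more in a narrow run, and domains include bins under the minimum. Within 5 kb of their edges the domains had 1.03 RPM per kb of H3KAc and 0.928 RPM per kb of IgG, and the narrower runs 0.724 and 0.674 RPM per kb. The stretches beside the domains therefore held more of both libraries than those beside the narrower runs. Beside the 1528 runs of 5 kb or more below the ratio, the levels were 1.16 RPM per kb of H3KAc and 1.42 RPM per kb of IgG. High levels beside a run were thus not particular to the domains.

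Bins of equal H3KAc count were compared inside and outside the domains. Among bins of 30 to 39 positions, the 2171 inside had 1.06 RPM of IgG and a ratio of 1.63, and the 33595 outside had 1.76 RPM and a ratio of 0.964. In bins of 60 to 99 positions, IgG was 1.40 RPM inside and 1.80 RPM outside, with ratios of 2.75 and 2.15. Of the bins with 200 or more positions, 63 lay inside with 2.30 RPM of IgG and a ratio of 5.02, and 189 lay outside with 21.7 RPM of IgG and a ratio of 0.649. In each class of 30 or more positions, bins inside the domains held less IgG than bins outside, which the ratio over the whole run favours by construction. Bins under 30 positions were not matched in H3KAc, and only those with a position in either library were counted. The 977 inside had 1.03 RPM of H3KAc, 0.698 RPM of IgG and a ratio of 1.48, and those outside had 0.391 RPM of H3KAc, 0.413 RPM of IgG and a ratio of 0.947.

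Domains were unevenly spread over the autosomes, with 0.476 per 1000 covered kb (0.447 to 0.506) on average. Chromosome 11 had the most, with 115 domains or 1.03 per 1000 kb (0.851 to 1.24), and they took 0.840% of its covered sequence. Chromosome 19 had 48 domains, 0.886 per 1000 kb (0.653 to 1.17), and they held 4.06% of its H3KAc positions, the largest share of any autosome. Chromosome 17 followed with 71 domains and 0.857 per 1000 kb (0.670 to 1.08), an interval that overlaps those of chromosomes 11 and 19. The lowest were chromosome 18, with 14 domains and 0.176 per 1000 kb (0.0963 to 0.295), and chromosome 14, with 22 domains and 0.214 per 1000 kb (0.134 to 0.323).

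Depth moved with these numbers in both libraries. Chromosome 11 had 12.1 H3KAc and 1.17 IgG positions per covered kb, against 7.93 and 0.744 on chromosome 18. Across the 19 autosomes, the number of domains per covered kb correlated with H3KAc positions per kb (r = 0.911, rho 0.932) and with IgG positions per kb (r = 0.857, rho 0.884). These points share both libraries, and the fixed minimum of 30 positions is easier to reach on a chromosome with more positions. The part of depth in the spread over chromosomes was not tested. The share of runs of 5 kb or more that met the ratio tended to be lower on chromosomes with more domains per covered kb (r = -0.313, rho -0.466 over the 19 autosomes). It was highest on chromosome 13, at 32 of 44 (72.7%), and lowest on chromosome 5 (29.7%) and chromosome 10 (29.9%).

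**Figure D5:**
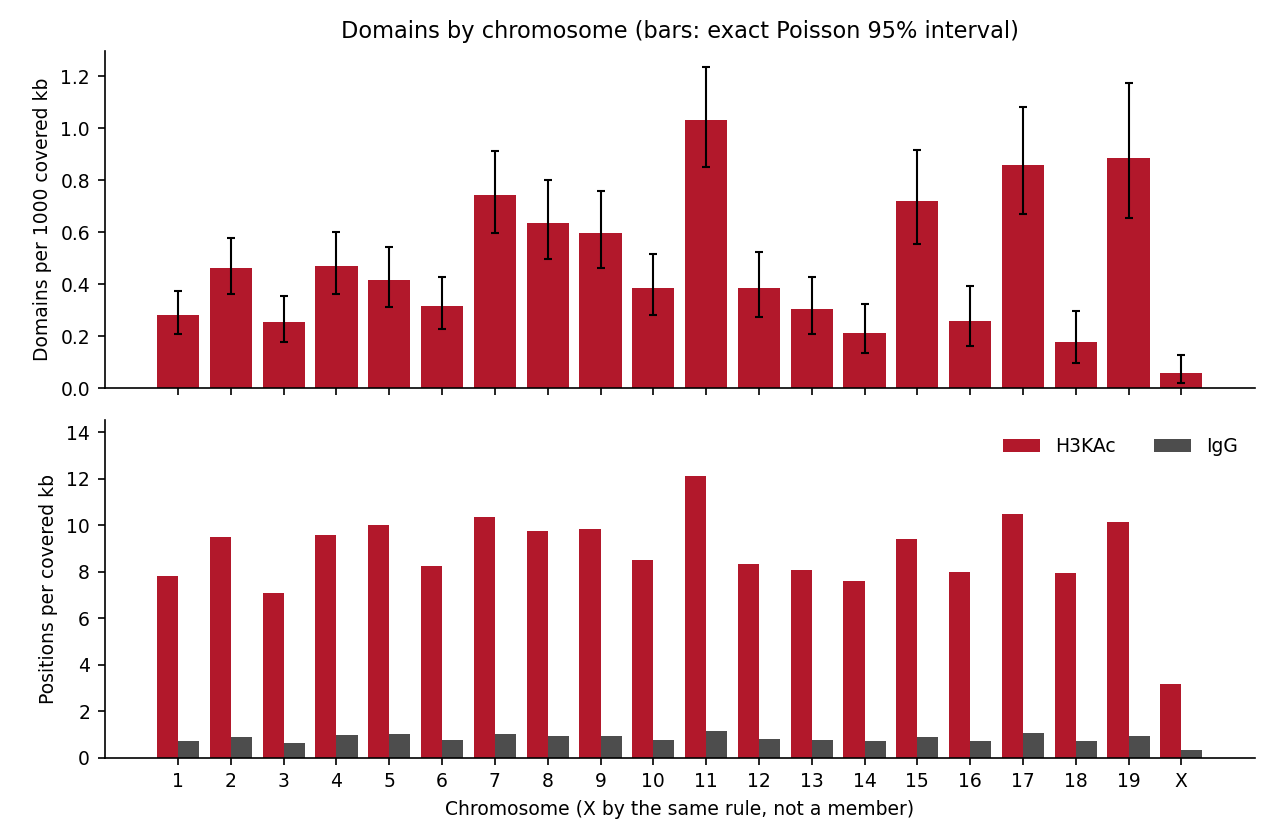
Above, domains per 1000 covered kb on each chromosome, with exact Poisson 95% intervals. Below, H3KAc and IgG positions per covered kb. Chromosome 11 is highest in both, at 1.03 domains per 1000 kb and 12.1 H3KAc positions per kb. Chromosome X, shown by the same rule, is not among the 1019 domains.

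Many domains had another domain nearby. Another domain lay within 50 kb of 401 domains (39.4%) and within 10 kb of 156 (15.3%), and the median gap to the nearest was 91 kb. Joined at gaps of up to 50 kb, a distance chosen after the positions were seen, they made 106 pairs, 53 groups of 3 or more and 618 single domains. Runs of 5 kb or more below the ratio lay within 50 kb of another such run in 62.3% of cases, so closeness was not particular to the domains.

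The group with the most domains was chr16:10660001-10849000, where 8 domains took 95 of 189 kb. They held 4855 H3KAc and 185 IgG positions, with a pooled ratio of 2.53 (2.18 to 2.94). Single levels ran from 2.04 to 4.65 RPM per kb of H3KAc and ratios from 1.90 to 6.19. The ratio of 6.19 came from a 7-kb domain with 386 H3KAc and 6 IgG positions. The highest level was in the 12-kb domain chr16:10780001-10792000, with 1099 H3KAc and 39 IgG positions and a ratio of 2.71 (1.97 to 3.84). The group on chromosome 13 at chr13:52886001-53086000 had 7 domains over 93 of 200 kb and a pooled ratio of 2.54 (2.19 to 2.97). It ended with the 21-kb domain described above and held a pair of 20-kb domains, with ratios of 1.92 (1.46 to 2.59) and 2.40 (1.75 to 3.38). Its levels were even, from 2.17 to 2.81 RPM per kb of H3KAc.

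Other groups were more compact or stood on less IgG. At chr9:107187001-107244000, 3 domains took 51 of 57 kb, with a pooled ratio of 2.75. At chr11:53419001-53470000, 4 domains took 35 of 51 kb, with a pooled ratio of 2.23 (1.76 to 2.88). At chr12:102212001-102268000, 4 domains took 38 of 56 kb, with a pooled ratio of 2.09 (1.68 to 2.63). The highest pooled ratio among the groups of 3 or more, 4.21 (3.01 to 6.06), was that of chr6:48625001-48723000, whose 4 domains held 1530 H3KAc and 35 IgG positions and include the first of the domains without an IgG position. The lowest pooled ratio of these groups was 1.78.

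Near the limits of the rule, domains and other runs had similar counts. Just inside the ratio, chr7:90014001-90019000 and chr13:55633001-55638000 both had 343 H3KAc and 21 IgG positions. Just outside it was a run wider than any domain, chr15:72977001-73018000, of 41 kb, with 1758 H3KAc and 112 IgG positions and a ratio of 1.51 (1.25 to 1.85) before the added position. The next below it, chr3:95484001-95493000, of 9 kb, held 575 H3KAc and 36 IgG positions. Just under the span limit, 618 of 1409 runs of 4 kb met the ratio (43.9%), at 2.96 RPM per kb of H3KAc and 1.06 RPM per kb of IgG. One of them, chr8:72424001-72428000, held 446 H3KAc and 2 IgG positions, with a ratio of 21.5 (5.91 to 178).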

How the data were processed

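The deposited files list mapped read positions for both libraries, and per the submitters' processing notes the reads were mapped with Bowtie to mm9. Its version and settings, and whether repeated reads were filtered, were not given in the sources used here. Reads at the same position and strand were counted once and moved 100 bp. Domains were called on chromosomes 1 to 19 only. RPM is relative to all distinct positions of a library. Level intervals are exact Poisson and ratio intervals are conditional binomial (Clopper-Pearson), at 95%. The domain calling was tested on simulated data, with unbroken blocks of high H3KAc on an unchanged IgG background. Domains with raised IgG, with bins under the minimum or near the ratio limit were not simulated. The members, lists and tests were chosen with earlier results of these data known. Named domains were the 10 widest, the 10 highest per kb, the 10 with the highest lower bound, the 5 with the lowest ratio and the widest of each autosome, of which the informative ones are described, besides groups of domains and runs next to the limits. Alternatives changed the bin size, minimum, joining, ratio, read handling and scaling. A pair of settings (5 or more bins over the minimum, and leaving out domains whose interval reached 1), the 50-kb grouping and the summit profile were added after seeing the data. Counts were made with pandas 2.3.3 and numpy 2.4.6 under Python 3.11.15, intervals with scipy 1.17.1 and plots with matplotlib 3.10.9.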

Additional observations from a re-analysis of the deposited data

Results flagged for a closer look

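Chromosome X was outside the choice of domains. By the same rule, 6 of its 9 runs of 5 kb or more had a ratio of 1.5 or more. They spanned 33 kb with 1795 H3KAc and 76 IgG positions, at 2.76 RPM per kb of H3KAc and 1.21 RPM per kb of IgG, and their pooled ratio was 2.27 (1.81 to 2.90). They numbered 0.0581 per 1000 covered kb (0.0213 to 0.126), on a chromosome with 3.16 H3KAc and 0.335 IgG positions per covered kb. The widest run there, chrX:166416001-166447000, of 31 kb, had a ratio of 0.235 and was not among them.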

How the results depend on the processing

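The 1019 domains over 7789 kb had a pooled ratio of 2.42, 2.91 RPM per kb of H3KAc and 2.30% of H3KAc positions. These values changed with the limits of the rule and with the counting of repeated reads. A minimum of 40 positions left 493 domains over 3518 kb (ratio 2.56, 3.56 RPM per kb, 1.27% of positions). A minimum of 25 gave 1478 domains over 12007 kb (2.34, 2.49 RPM per kb, 3.04%). Joining adjacent bins only gave 613 domains over 4257 kb (2.51, 3.42 RPM per kb, 1.48%). Joining over up to 2 bins gave 1317 domains (2.36, 2.59 RPM per kb, 2.89%). A ratio of 1.0 gave 1637 domains over 12950 kb (1.82, 2.67 RPM per kb, 3.52%), a ratio of 2.0 gave 650 over 4704 kb (3.10, 3.00 RPM per kb, 1.44%), and a lower bound of 1.5 gave 477 over 3741 kb (3.27, 3.13 RPM per kb, 1.19%). With all reads there were 1345 domains, the ratio was 2.21, the level 3.39 RPM per kb and the share 3.59%. Bins of 500 bp gave 2.80 RPM per kb and 2.34%. Plus-strand positions alone gave a ratio of 2.55 and 2.82 RPM per kb, and minus-strand positions 2.54, 2.83 RPM per kb and 2.50%. Scaling IgG to the background gave 2.92 RPM per kb and 2.18%, at least 5 bins over the minimum 2.99 RPM per kb and 2.01%, and leaving out intervals that reached 1 gave 2.94 RPM per kb and 2.25%. The ratio on the other strand was 2.29 for domains chosen on the plus strand and 2.16 for those chosen on the minus strand. Leaving reads unmoved gave 1018 domains and a ratio of 2.43. Limits of the rule change these values by construction, and for the rest the cause was not tested. Of the 1019 domains, at least 50% of the span was found again in 883 with all reads, 704 with 500-bp bins and 395 with a minimum of 40. Of the 45 named domains, 17 were found again by that measure in all 15 settings. No paired analysis was possible because each group had 1 library. The IgG depth limits each ratio, and a single library limits every comparison.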

Other observations

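The 5-kb domain chr9:21091001-21096000 had 165 of its 197 H3KAc positions on the plus strand (83.8%), and 2 domains exceeded 60%. With all reads counted, 2 domains had a ratio of 1 or less, chr19:42091001-42099000 at 0.844 and chr14:32474001-32479000 at 0.862, while both had 1.66 by distinct positions.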
